A study of Mus musculus with 42 samples.

Results

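Hippocampal pyramidal neurons were compared with layer 5 pyramidal neurons of the cingulate cortex in adult male mice. The comparison used 6 of the 42 arrays of a survey of mouse forebrain neurons, namely the 3 arrays of the YFPH-Hippocampus group (YFPH_Hip) and the 3 arrays of the YFPH-CingulateCortex group (YFPH_Cg). In both groups the cells were picked by hand for yellow fluorescent protein after the tissue was dissected and dissociated, and their RNA was amplified before it was hybridised to an Affymetrix mouse expression array. Both groups came from mice of mixed YFPH and C57BL/6j background, in which the Thy1 promoter drives the fluorescent protein in a subset of projection neurons, so that what was sorted is the labelled subset and not every pyramidal cell of the region. The hippocampal mice were labelled P106, P99 and P91 (postnatal days) and gave 104, 81 and 43 cells. The cingulate mice were labelled P65 and P80 for arrays 1 and 2, no age is stated in the labels used here for array 3, and the 3 arrays held 74, 105 and 57 cells. The hippocampal label does not name a subfield. Each gene was read from its brightest probe set that is annotated to a single symbol, and groups were compared on log2(intensity + 16) in limma with Benjamini-Hochberg adjustment over all tested genes.

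Other groups of the survey were used only where they bear on this comparison. Of the same mouse line these were layer 5 pyramidal neurons of the somatosensory cortex (YFPH_SS) and labelled neurons of the amygdala (YFPH_Amy), whose label gives no cell class. Pyramidal cells of cingulate layer 6, labelled retrogradely from the medial dorsal thalamus in C57BL/6j mice, formed a further group (CT6_Cg). Somatostatin interneurons of the GIN line came from the hippocampus (GIN_Hip) and from the cingulate cortex (GIN_Cg). The YFPH_SS mice were labelled P65, P70 and P86, the YFPH_Amy mice P99, P106 and P91, the CT6_Cg mice P80 and P82 for arrays 1 and 3, the GIN_Hip mice P63, P71 and P74 and the GIN_Cg mice P78 for array 2. Each group had 3 arrays, and the series design states that replicates came from different animals.

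The hippocampus proper is made of a folded sheet of pyramidal neurons, which runs from CA3 through CA1 and receives its main cortical drive by way of the dentate gyrus and the entorhinal cortex. Layer 5 of the neocortex holds the large pyramidal neurons that send cortical output to subcortical targets and to the other hemisphere. Both are glutamatergic, arise from the pallium and share much of their gene expression, and they differ in the adhesion molecules, calcium binding proteins, receptors and transcription factors that mark each field and layer.

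The 6 arrays differed in more than region. The YFPH_Hip arrays were scanned on other days than the YFPH_Cg arrays, all came from chip lot 1, and YFPH_Hip array 1 was noted as abnormally amplified in the array records. The YFPH_Cg arrays came from 3 chip lots, 1 of them lot 1, and YFPH_Cg array 3 was noted as sorted by a new method. The log2 ratio of the 3' to the 5' Gapdh control signal, which rises as amplified RNA gets shorter, was 2.53 ± 0.05 on YFPH_Hip arrays and 2.12 ± 0.05 on YFPH_Cg arrays (SD, n = 3 each), with no overlap. Age and scan day cannot be told apart from region in these 6 arrays. The YFPH_Amy arrays carry the same 3 ages, scan days and lot as the YFPH_Hip arrays in another order, with YFPH_Amy array 2 also noted as abnormally amplified, and are given beside the main result for named genes. The hippocampal and amygdala arrays may thus come from the same mice.

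Between hippocampal pyramidal and cingulate layer 5 neurons, 935 of 9295 tested genes passed an adjusted p of 0.05 (10.1%), of which 415 were higher (4.46%) and 520 lower (5.59%) in hippocampal pyramidal neurons. At least a 2-fold difference was found for 184 of these (1.98% of those tested), 77 higher (0.828%) and 107 lower (1.15%), and 182 of the 184 also had arrays that did not overlap between the groups (1.96%). Groups with no overlap, whatever the test gave, made up 25.4% of the genes. Differences on the log2(intensity + 16) scale understate the change of dim genes, and the median difference over the 9295 genes was 0.0073. In such pooled cells, fewer cells that express a gene and less of its RNA per cell cannot be told apart. Pearson's r between arrays over these genes was 0.956 to 0.975 within YFPH_Hip, 0.971 to 0.985 within YFPH_Cg and 0.924 to 0.956 between them. The count was 566 when the 6 compared arrays alone were fitted, 582 without YFPH_Cg array 1 and 760 without the 3 arrays with a note. With the Gapdh ratio as a covariate it was 845. It was 289 with chip lot as a block and 569 within the first scan year. With chip lot as a block the difference rests on 3 YFPH_Hip arrays against the 1 YFPH_Cg array of lot 1. A fit within chip lot 1 rests on the same arrays, and both gave a median difference of 0.041 over all tested genes.

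**Figure D1:**
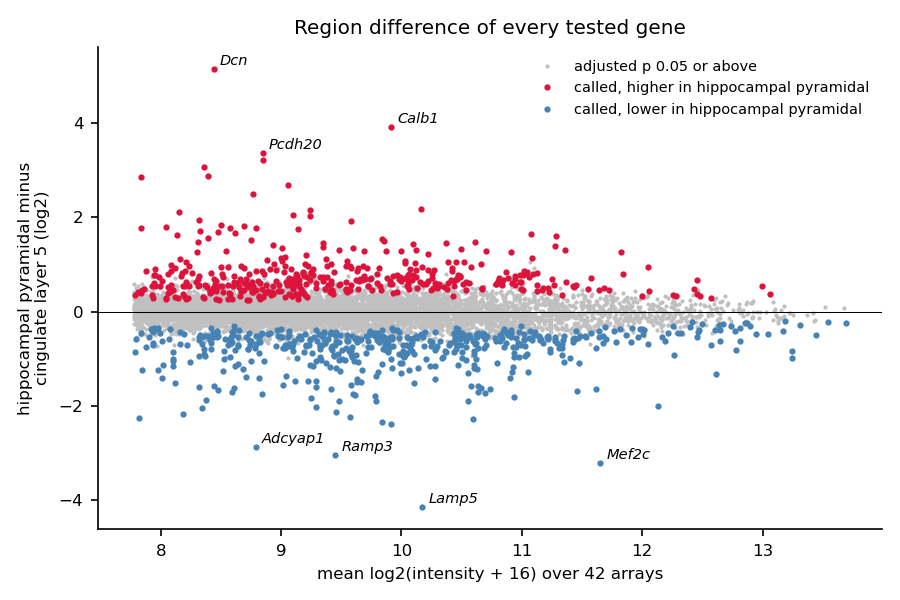
Difference between hippocampal pyramidal and cingulate layer 5 neurons (log2) against mean level over all 42 arrays (log2 intensity + 16) for each of the 9295 tested genes. Red points are the 415 genes called higher in hippocampal pyramidal neurons, blue points the 520 called lower and grey points the rest, with Dcn at 5.15 and Lamp5 at -4.15 at the extremes.

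The labels were first checked against genes that mark the cells. Thy1, whose promoter drives the label, had intensities of 20579, 22174 and 20365 in hippocampal pyramidal neurons and 22001, 21783 and 22439 in cingulate layer 5 neurons, so near the highest value of the table, 22818.24, that little room was left for a difference. Bcl11b and Crym, which are both used as markers of deep-layer projection neurons and are also known in hippocampal pyramidal cells, did not pass the test. Bcl11b had 3203, 4709 and 3356 in hippocampal pyramidal neurons and 4655, 2186 and 4496 in cingulate layer 5 neurons. Gad1, which makes GABA and is defining for inhibitory neurons, stayed between 24.9 and 44.9 on the 6 arrays, against 203 as the mean level over all 42 arrays that a gene had to reach to be tested. Prox1, the transcription factor of dentate granule cells, had 261, 254 and 282 in hippocampal pyramidal neurons and 309, 269 and 277 in cingulate layer 5 neurons (log2 difference -0.095 ± 0.12, adjusted p 0.72).

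The largest difference was that of Dcn, which encodes decorin, a small leucine-rich proteoglycan that binds collagen and growth factors. Its intensities were 11843, 4843 and 7167 in hippocampal pyramidal neurons, against 182, 199 and 200.1 in cingulate layer 5 neurons. The hippocampal arrays lay far above the cingulate ones, although they spread widely among themselves (log2 difference 5.15 ± 0.36, SE, 35.6-fold, adjusted p 1.6e-12). Calb1, the calcium buffer calbindin, had 3879, 4189.9 and 4315 in hippocampal pyramidal neurons, against 209, 349 and 234 in cingulate layer 5 neurons. The 3 hippocampal arrays were nearly level for Calb1, and the difference was 3.92 ± 0.31 (15.1-fold, adjusted p 2.4e-11). A second, dimmer probe set for Calb1 differed in the same direction, by 2.21.

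Pcdh20, a protocadherin of the cell surface, followed with 2273, 2698 and 2856 in hippocampal pyramidal neurons, against 232, 295 and 196 in cingulate layer 5 neurons. Its second probe set gave 2.97, close to the 3.36 ± 0.20 of the first (10.3-fold, adjusted p 9.9e-15). Nnat, an imprinted gene for a small protein of the endoplasmic reticulum, had 4334, 5157 and 6256 in hippocampal pyramidal neurons, against 809.7, 656 and 303 in cingulate layer 5 neurons, with the cingulate arrays spread more widely than the hippocampal ones (log2 difference 3.21 ± 0.47, adjusted p 7.1e-06).

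Lpl, Matn2 and Col5a2, all higher in hippocampal pyramidal neurons, are described next and not in order of size. H1f2 at 3.08 exceeded Lpl, and Col5a2 was the smallest of the 12 largest positive differences. Lpl, lipoprotein lipase, had 2490.5, 1811 and 576 in hippocampal pyramidal neurons, against 163, 198 and 165 in cingulate layer 5 neurons. YFPH_Hip array 3 was the lowest of the hippocampal arrays for Lpl and still lay above every cingulate array (log2 difference 2.87 ± 0.31, adjusted p 1.9e-08). A second, dimmer probe set of Lpl differed by 0.83. Matn2, which encodes the matrix protein matrilin 2, had 791, 948 and 427 in hippocampal pyramidal neurons, against 87.1, 111 and 52.2 in cingulate layer 5 neurons (2.87 ± 0.28, adjusted p 3.4e-09). A second probe set of Matn2 differed by 0.75. Col5a2, a chain of fibrillar collagen V, had 601, 567 and 2244 in hippocampal pyramidal neurons, against 187, 197 and 217 in cingulate layer 5 neurons, highest on YFPH_Hip array 3 (2.11 ± 0.25, adjusted p 1.9e-07). Without YFPH_Hip array 3 the Col5a2 difference was 1.47 (adjusted p 3.5e-09). On all arrays its second probe set differed by 1.41.

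The remaining genes of the 12 with the largest positive differences encode a histone, a kinase and other proteins of the cell itself. H1f2, a linker histone, had 1121, 1596 and 793 in hippocampal pyramidal neurons, against 136, 82.9 and 147 in cingulate layer 5 neurons (3.08 ± 0.33, adjusted p 2.4e-08). Its other probe sets differed by 3.68 and 0.28. Lats2, a kinase of the Hippo pathway, had 579, 1177 and 921 in hippocampal pyramidal neurons, against 141, 149.6 and 80.2 in cingulate layer 5 neurons (2.68 ± 0.38, adjusted p 5.5e-06), but among its 5 other, dimmer probe sets the differences ran from -0.10 to 0.77. Rprm, which encodes reprimo, a protein induced by p53 that arrests the cell cycle, had 898, 1075 and 883 in hippocampal pyramidal neurons, against 169, 170.2 and 127 in cingulate layer 5 neurons, with little spread in either group (2.50 ± 0.19, adjusted p 1.3e-11). Tubb2b, a beta tubulin, differed by 2.17 ± 0.31 and Mmd2, a membrane protein of the progestin and adipoQ receptor family, by 2.16 ± 0.25 (adjusted p 6.2e-06 and 6.6e-08). Mmd2 had 3076, 3116 and 2748 in hippocampal pyramidal neurons, against 665, 709.8 and 585 in cingulate layer 5 neurons. Its second probe set differed by 1.21.

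Among genes lower in hippocampal pyramidal neurons, Lamp5 came first. Lamp5 encodes a brain-specific membrane protein of the LAMP family. Its intensities were 631, 189 and 460.0 in hippocampal pyramidal neurons, against 6878, 6689 and 7581 in cingulate layer 5 neurons. The cingulate arrays were nearly level, the hippocampal ones were not, and the groups were far apart (log2 difference -4.15 ± 0.30, 17.7-fold lower, adjusted p 2.3e-12). Mef2c, a transcription factor of the MEF2 family that acts in activity-dependent transcription and synapse number, had 448, 701 and 873 in hippocampal pyramidal neurons, against 6341, 5952 and 6159.9 in cingulate layer 5 neurons (-3.21 ± 0.18, 9.25-fold lower, adjusted p 9.9e-15). All 4 other probe sets of Mef2c were lower too, with log2 differences of -2.58 to -3.64.

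**Figure D2:**
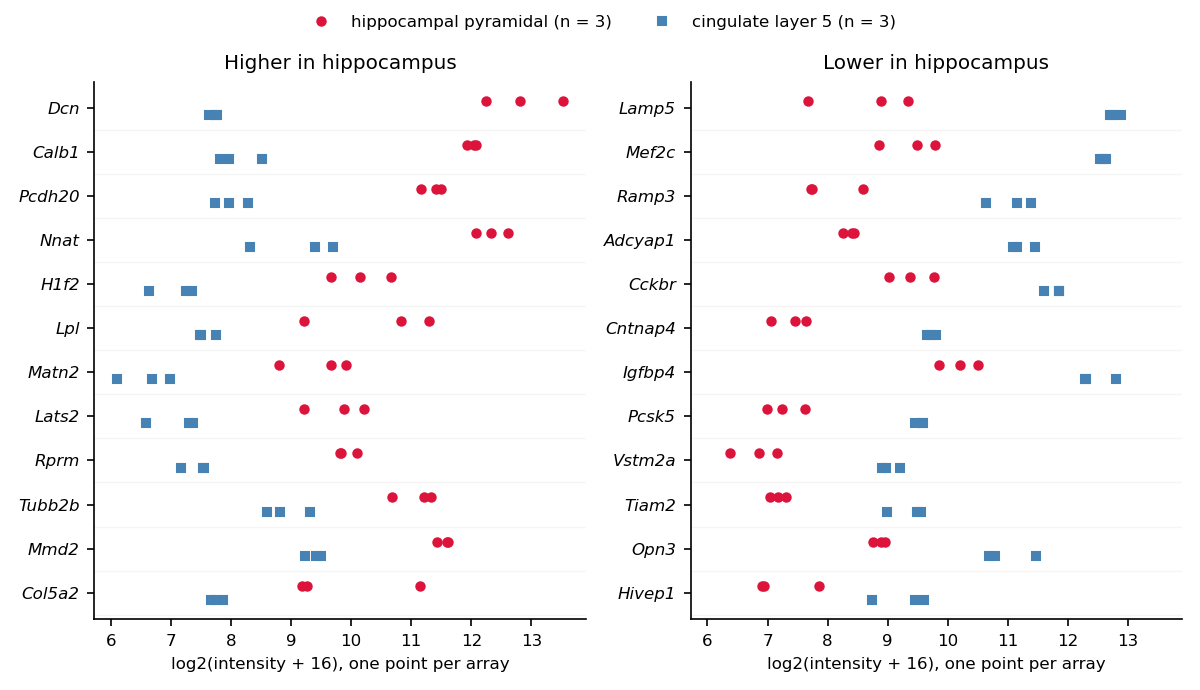
Levels on each array, as log2(intensity + 16), of the 12 genes with the largest called positive (left) and negative (right) differences whose arrays do not overlap, with hippocampal pyramidal neurons as circles above cingulate layer 5 neurons as squares. The 3 circles and 3 squares of each gene stay apart because the genes were chosen so, with Dcn (5.15) and Lamp5 (-4.15) farthest apart.

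Adcyap1, Cckbr and Ramp3 were also lower in hippocampal pyramidal neurons. Adcyap1, which encodes the neuropeptide PACAP, had 290.3, 331 and 325 in hippocampal pyramidal neurons, against 2273, 2163 and 2781 in cingulate layer 5 neurons (-2.86 ± 0.22, 7.28-fold lower, adjusted p 9.8e-12). Cckbr, the brain receptor for cholecystokinin, had 646, 502 and 862 in hippocampal pyramidal neurons, against 3689, 3087 and 3711 in cingulate layer 5 neurons (-2.38 ± 0.21, adjusted p 2.9e-10). A second, dimmer probe set of Cckbr differed by -0.57. Ramp3, an accessory protein that sets the ligand choice of calcitonin-type receptors, had 197, 198 and 368 in hippocampal pyramidal neurons, against 2260.0, 1573 and 2652 in cingulate layer 5 neurons (-3.04 ± 0.34, adjusted p 5.1e-08). The groups of these 3 genes do not overlap, as the rule that named them requires. Pcsk5, a protease that cleaves proproteins in the secretory pathway, differed by -2.26 ± 0.23 (adjusted p 7.8e-09), while its 3 other probe sets lay between -0.21 and 0.11.

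Igfbp4, which binds insulin-like growth factors, had 1160.4, 1439.8 and 913 in hippocampal pyramidal neurons, against 7143, 5059.9 and 4981 in cingulate layer 5 neurons (-2.28 ± 0.22, adjusted p 3.3e-09). Of its 5 other probe sets, 3 had differences of -1.87 to -3.56 and the other two differed by 0.02 and 0.05. Cntnap4, a neurexin-related adhesion protein, had 117, 159 and 183 in hippocampal pyramidal neurons, against 795, 876 and 828 in cingulate layer 5 neurons (-2.35 ± 0.28, adjusted p 2.3e-07). Vstm2a, a secreted protein with an immunoglobulin domain, was lower by a log2 difference of -2.23 ± 0.23, and Tiam2, an exchange factor for the small GTPase Rac, by -2.17 ± 0.16 (adjusted p 7.7e-09 and 5.6e-12). A second, dimmer probe set of Tiam2 differed by -0.50. Opn3, a non-visual opsin, differed by -2.12 ± 0.23 and Hivep1, a zinc finger protein that binds DNA, by -2.03 ± 0.31 (adjusted p 3.3e-08 and 1.8e-05). For Hivep1 the highest hippocampal array had 216 and the lowest cingulate array 414.

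These 24 genes were followed through the other ways of processing the table. They were chosen as the largest calls on the same arrays, so that passing again is no independent support. Of them, 21 passed the test in every setting that gave a value, and 3 did not, namely Lpl, Tubb2b and Col5a2, all within chip lot 1, where a single cingulate array is left. Within that lot the log2 difference was 5.11 for Dcn and 3.50 for Calb1 (adjusted p 0.0081 and 4.5e-04). It was -4.07 for Lamp5 and -3.16 for Mef2c (adjusted p 0.0081 and 0.0047).

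The promoters of 3 of the named genes are shown as the sequence around the start of a gene that was higher (Pcdh20) and of a pair that was lower (Lamp5 and Ramp3) in hippocampal pyramidal neurons. Each runs from 250 bases before to 50 bases after a RefSeq start (GRCm38.p6, strand of the gene), and 72 of the 97 genes named by rule had an entry in the table used. Capitals mark matches on either strand to GGGCGG (the GC box), CCAAT (the CCAAT box) and TATAAA (the TATA box), which do not overlap each other in these windows.
Pcdh20, chr14:88471347-88471646, minus strand: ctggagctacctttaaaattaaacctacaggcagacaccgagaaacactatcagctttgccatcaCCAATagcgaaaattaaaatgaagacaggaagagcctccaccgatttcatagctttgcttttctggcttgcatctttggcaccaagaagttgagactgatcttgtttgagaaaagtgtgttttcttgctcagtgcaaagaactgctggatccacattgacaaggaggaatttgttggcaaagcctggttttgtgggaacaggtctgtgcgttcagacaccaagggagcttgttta
Lamp5, chr2:136052089-136052388, plus strand, the first of 2 listed starts: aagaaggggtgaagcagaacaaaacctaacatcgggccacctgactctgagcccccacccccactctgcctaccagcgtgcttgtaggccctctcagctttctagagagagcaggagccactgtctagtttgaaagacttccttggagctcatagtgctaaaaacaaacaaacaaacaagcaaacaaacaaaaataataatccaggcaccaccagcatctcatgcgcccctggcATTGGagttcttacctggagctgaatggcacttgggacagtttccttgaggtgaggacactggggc
Ramp3, chr11:6658283-6658582, plus strand: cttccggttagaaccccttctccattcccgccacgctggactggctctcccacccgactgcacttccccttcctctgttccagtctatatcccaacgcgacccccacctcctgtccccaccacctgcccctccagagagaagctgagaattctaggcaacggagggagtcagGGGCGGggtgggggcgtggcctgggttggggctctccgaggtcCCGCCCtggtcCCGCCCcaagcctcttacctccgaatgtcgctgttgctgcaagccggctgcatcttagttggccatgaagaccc
Ramp3 held 3 matches to GGGCGG, and Pcdh20 and Lamp5 held 1 match each to CCAAT. Of all 32851 promoters of the table, 35.7% held GGGCGG, 37.4% CCAAT and 13.6% TATAAA. The window held 4 CG dinucleotides in Pcdh20, 3 in Lamp5 and 15 in Ramp3, against a median of 7 over all promoters. These are matches of letters and were not tested against expression.

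Set beside the other pyramidal groups, the genes with the largest differences behaved in several ways. These comparisons share the YFPH_Hip arrays with the main one, so each is given with its own value, and of all tested genes 15.0% were called against somatosensory layer 5 neurons, 7.84% against amygdala neurons and 24.7% against cingulate layer 6 neurons. Dcn was higher in hippocampal pyramidal neurons than in somatosensory layer 5 neurons by 5.20, than in amygdala neurons by 4.32 and than in cingulate layer 6 neurons by 5.20 (adjusted p 3.5e-13, 6.5e-11 and 1.9e-13). Calb1 was higher by 4.09, 3.21 and 4.91 against the same groups in that order (adjusted p 3.6e-12, 2.5e-09 and 3e-14). Mef2c differed by -3.14, -2.32 and -2.55 (adjusted p 5.7e-15, 3.9e-11 and 5.9e-13), and the mean level of Mef2c in hippocampal pyramidal neurons ranked 11 among the 12 sorted groups. For these 3 genes the hippocampal arrays stood apart from each of the other pyramidal groups and from the amygdala.

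Lamp5 and Adcyap1 separated the groups differently. Lamp5 differed from somatosensory layer 5 neurons by -4.14 and from amygdala neurons by -2.26 (adjusted p 9.5e-13 and 1.4e-06). Against cingulate layer 6 neurons the Lamp5 difference was 0.35 (adjusted p 0.41), with levels of 8.64 ± 0.86 in hippocampal pyramidal neurons and 8.29 ± 0.69 in cingulate layer 6 neurons (mean log2 ± SD, n = 3 each). Adcyap1 differed from somatosensory layer 5 neurons by -2.31 and from amygdala neurons by -0.86 (adjusted p 8.3e-10 and 0.0091), and from cingulate layer 6 neurons by 0.32 (adjusted p 0.29).

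Against the amygdala neurons Mmd2 was higher by 1.55, Tubb2b by 1.06, Col5a2 by 1.01 and Pcdh20 by 0.72 (adjusted p 2.6e-05, 0.03, 0.0082 and 0.015). Cckbr was lower, with a difference of -1.47, Cntnap4 with -2.56, Vstm2a with -2.76 and Tiam2 with -1.96 (adjusted p 5.6e-06, 4.4e-08, 5.5e-11 and 5.8e-11). Igfbp4 was higher in hippocampal pyramidal neurons than in amygdala neurons, by 0.83 (adjusted p 0.015), the opposite of its direction against cingulate layer 5 neurons. The genes of the 24 that did not pass against amygdala neurons were Lpl (0.44, adjusted p 0.47), Matn2 (-0.36, 0.54), Rprm (0.04, 0.95), Nnat (0.78, 0.37), H1f2 (0.88, 0.1), Lats2 (-0.29, 0.77), Ramp3 (0.24, 0.8), Pcsk5 (-0.15, 0.81), Opn3 (-0.44, 0.29) and Hivep1 (0.075, 0.95).

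With the hippocampal and amygdala arrays matched by labelled age, which also matches the scan day, 773 genes were called against 729 without the match, and 717 were called by both. Among named genes the match added Gria1, Grm8, C1qa and C1qb (adjusted p 0.043, 0.041, 0.047 and 0.049) and removed none. Without the noted arrays 498 genes were called against amygdala neurons. Of the 24 genes, Tubb2b, Adcyap1 and Igfbp4 then lost their call (adjusted p 0.11, 0.1 and 0.11). Among the other named genes Kcnh2, Ptgs2, Adcy9, Rgs10, Epha7 and Cxcl12 lost theirs (adjusted p 0.062 to 0.26).

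Rprm had its highest mean level of the 7 groups used here in cingulate layer 6 neurons, at 12.23 ± 0.17, against 9.91 ± 0.15 in hippocampal pyramidal neurons, 9.87 ± 0.42 in amygdala neurons and 7.41 ± 0.22 in cingulate layer 5 neurons (mean log2 ± SD, n = 3 each). Hippocampal and amygdala neurons did not differ for Rprm beyond their spread, and both lay above layer 5 and below layer 6. The difference of hippocampal pyramidal minus cingulate layer 6 neurons was -2.32 (adjusted p 2.3e-11).

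**Figure D3:**
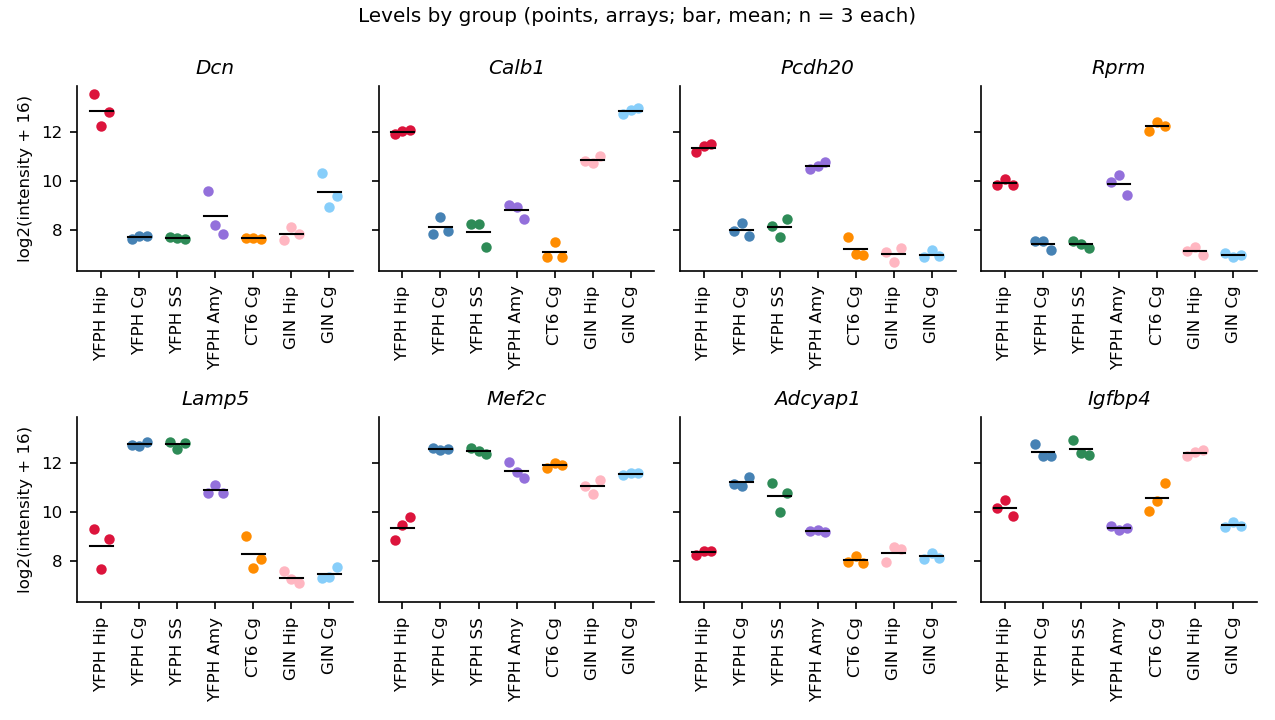
Levels of 8 named genes as log2(intensity + 16) in 7 groups of 3 arrays each, with a point per array and a bar at the mean. Dcn is high in hippocampal pyramidal neurons among the groups shown, Mef2c is lowest there, and Rprm and Pcdh20 are high in hippocampal pyramidal and amygdala neurons and low in both layer 5 groups.

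Genes known to mark hippocampal fields and cortical layers were described next, as lists of which only some members were measured and passed the filter on level. Of the members given with a value as higher or lower, Pou3f1 and Grm8 had overlapping groups and the others did not. Over all tested genes 10.1% were called, which is the share to set beside the count of every list. Of 12 genes listed for CA1 pyramidal cells, 7 were tested, 4 were higher (Dcn, Man1a, Wfs1 and Pou3f1) and 1 lower (Lypd1) in hippocampal pyramidal neurons, with a median of 0.75 against 0.0073 over all tested genes, of which 4.46% were higher and 5.59% lower. Man1a, a mannosidase of the Golgi, had 2143, 3068 and 2141 in hippocampal pyramidal neurons, against 1186, 910.3 and 723 in cingulate layer 5 neurons (1.38 ± 0.21, adjusted p 2e-05). Wfs1, wolframin of the endoplasmic reticulum and a standard CA1 marker, had 1010.5, 2047 and 1011 in hippocampal pyramidal neurons, against 865, 707 and 677 in cingulate layer 5 neurons (0.77 ± 0.19, adjusted p 0.0059), and without YFPH_Hip array 2 its difference was 0.43 (adjusted p 0.13). Pou3f1 lost its call without YFPH_Hip array 3 (0.37, adjusted p 0.17) or YFPH_Cg array 2, and the median of the list was 0.43 without YFPH_Hip array 2 and 0.37 without YFPH_Hip array 3. Lypd1, a modulator of nicotinic receptors, had 1496, 1073 and 904 in hippocampal pyramidal neurons, against 3454, 2378 and 3485 in cingulate layer 5 neurons (-1.42 ± 0.30, adjusted p 0.0015).

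Of 16 genes listed for CA3 and CA2, 9 were tested, with Nnat higher, Pcp4 lower and a median of 0.03. Of 12 genes of dentate granule cells 3 were tested and Calb1, which CA1 cells also express, was the only one called. None of the 5 tested genes of 7 listed for the subiculum passed (median 0.17), the largest difference being that of Fn1 at 0.35 ± 0.13 (adjusted p 0.095), and 1 passed as higher without YFPH_Hip array 2.

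Of 19 genes listed for layer 5, 12 were tested, 0 were higher and 4 were lower in hippocampal pyramidal neurons, with a median of -0.38. The 4 were Pcp4, Tox, Parm1 and Sulf2. Pcp4, which regulates calmodulin and is also a marker of CA2, had 1869.6, 1074 and 2917 in hippocampal pyramidal neurons, against 6076, 6066 and 4872 in cingulate layer 5 neurons (-1.64 ± 0.25, adjusted p 1.7e-05). Tox, an HMG box protein of the nucleus, had 1409.8, 1078 and 1106 in hippocampal pyramidal neurons, against 2848, 2597 and 3104 in cingulate layer 5 neurons (-1.25 ± 0.19, adjusted p 1.3e-05). Fezf2, the transcription factor that specifies subcortical projection neurons, had 1913, 1732 and 3632 in hippocampal pyramidal neurons and 4358, 2579.9 and 2967 in cingulate layer 5 neurons, overlapping groups (-0.49 ± 0.29, adjusted p 0.32). Parm1 and Sulf2 lost their call without YFPH_Cg array 1, which left 2 lower members, and Parm1 also without YFPH_Hip array 2, YFPH_Hip array 3 or YFPH_Cg array 3 (without YFPH_Cg array 1, adjusted p 0.17 and 0.085).

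Layer 6 and subplate genes went both ways, with 2 higher and 3 lower of 9 tested of 14 listed (median -0.17). Rprm and Nr4a2, an orphan nuclear receptor, were higher, Nr4a2 by 0.43 ± 0.092 (adjusted p 0.0017). Tle4, a corepressor of the Groucho family, had 370.0, 334 and 293 in hippocampal pyramidal neurons, against 733, 581 and 776 in cingulate layer 5 neurons (-1.03 ± 0.20, adjusted p 4.3e-04). Tbr1, a T-box factor of deep-layer neurons, was lower by a difference of -0.70 ± 0.15, and Ntsr1, a neurotensin receptor, by -0.48 ± 0.14 (adjusted p 0.0015 and 0.02). Ntsr1 lost its call without YFPH_Hip array 2, YFPH_Cg array 1 or YFPH_Cg array 3 (adjusted p up to 0.1). Of 6 tested genes of 12 listed for layers 2 to 4, Calb1 and Inhba were higher and Lamp5 lower, with a median of 0.24. Inhba, a subunit of activin, had 968, 1091 and 1467 in hippocampal pyramidal neurons, against 742, 686 and 882 in cingulate layer 5 neurons (0.59 ± 0.13, adjusted p 0.002).

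**Figure D4:**
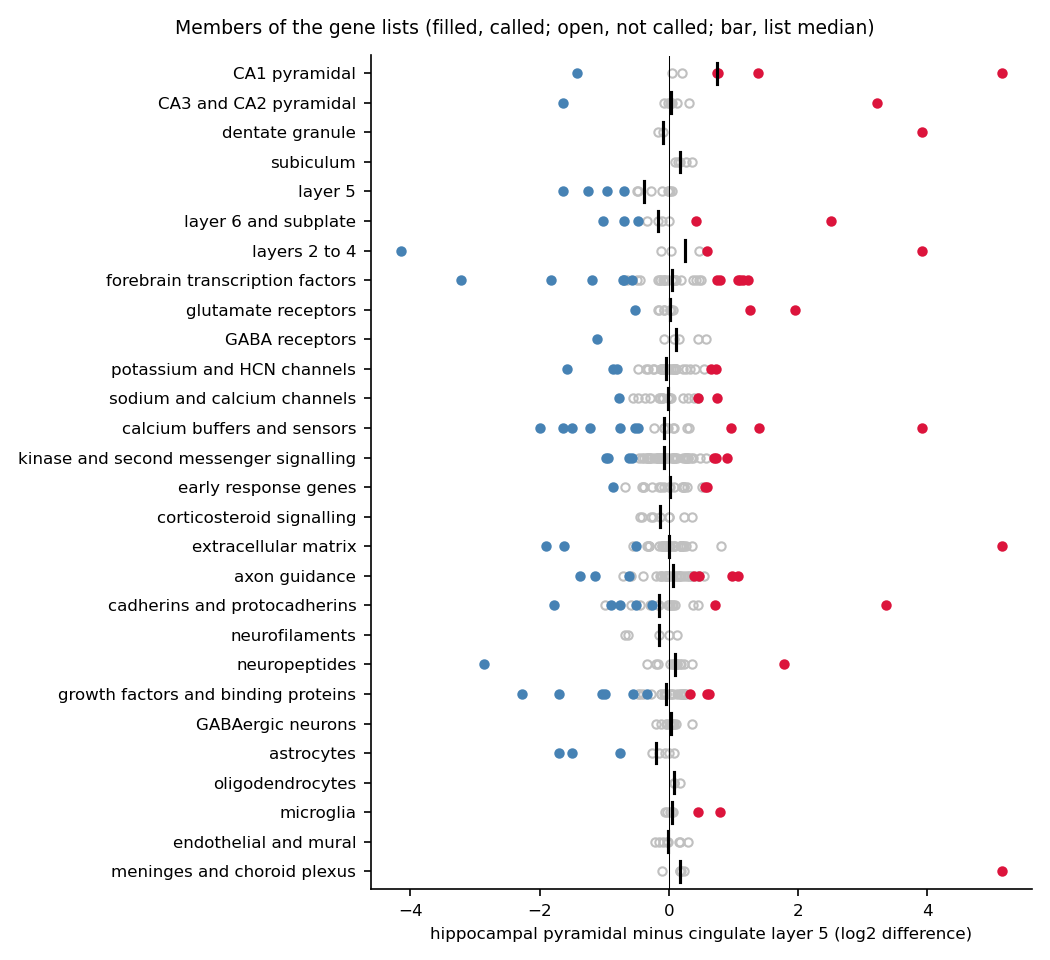
Difference between hippocampal pyramidal and cingulate layer 5 neurons (log2) of each tested member of 28 gene lists, 1 row per list, with filled points for called members (red higher, blue lower), open points for the rest and a bar at the list median. Calcium buffers and sensors hold 10 called members of 19, while corticosteroid signalling, neurofilaments, GABAergic, oligodendrocyte and endothelial genes hold 0. Over all 9295 tested genes 10.1% were called, so that 0 in lists of 3 to 11 tested members says little about them.

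Forebrain transcription factors were called in both directions, 6 higher and 6 lower of 33 tested of 46 listed, with a median of 0.05. Bcl11a, a zinc finger factor of cortical neurons, had 1934, 2568 and 1690.5 in hippocampal pyramidal neurons, against 1004, 1017 and 619 in cingulate layer 5 neurons (1.23 ± 0.20, adjusted p 3e-05). Zbtb20, a zinc finger repressor needed for CA1 identity in mice, was higher by 1.09 ± 0.20, Zeb2, a zinc finger factor of cortical development, by 1.15 ± 0.26, Lmo1, a LIM domain protein, by 1.07 ± 0.21 and Tcf4, a helix-loop-helix factor, by 0.80 ± 0.12 (adjusted p 2.8e-04, 0.0026, 4.9e-04 and 1.3e-05). The groups of Tcf4 were well apart, at 4991, 6357 and 5478 in hippocampal pyramidal neurons and 2943, 3524 and 3178 in cingulate layer 5 neurons.

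Pou3f1, a POU domain factor, was the other that was higher, and its level of 865, 1221 and 2265 in hippocampal pyramidal neurons overlapped the 856, 629 and 916 of cingulate layer 5 neurons (0.75 ± 0.19, adjusted p 0.008). Besides Mef2c, the lower ones were Id2, Satb1, Lmo2, Lmo4 and Tbr1. Id2, an inhibitor of helix-loop-helix factors, had 643, 344 and 353 in hippocampal pyramidal neurons, against 1756, 1402 and 1537 in cingulate layer 5 neurons (-1.83 ± 0.23, adjusted p 3.6e-07). Satb1, an organiser of chromatin, had 450.4, 401 and 723 in hippocampal pyramidal neurons, against 1530.0, 972 and 1116 in cingulate layer 5 neurons (-1.20 ± 0.21, adjusted p 8.6e-05).

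Among glutamate receptors 11 of 24 listed were tested, 2 were higher and 1 lower, with a median of 0.01. Gria1, a subunit of AMPA receptors, had 7958, 9088 and 5889.8 in hippocampal pyramidal neurons, against 2790.3, 3583 and 3088 in cingulate layer 5 neurons (1.26 ± 0.21, 2.39-fold, adjusted p 4.4e-05). Grik1, a kainate receptor subunit, was dim in both, with 175, 145 and 373 in hippocampal pyramidal neurons, against 43.5, 38.1 and 48 in cingulate layer 5 neurons (1.95 ± 0.28, adjusted p 7.1e-06). Grm8, a metabotropic receptor, was lower by a difference of -0.53 ± 0.17 (adjusted p 0.039), with overlapping groups and a call that was lost when any array other than YFPH_Hip array 3 was left out. Of GABA receptor genes 6 of 14 listed were tested and 1 was lower. This was Gabrd, the delta subunit of extrasynaptic GABA-A receptors, with 200.4, 186 and 185 in hippocampal pyramidal neurons, against 452, 453 and 384 in cingulate layer 5 neurons (-1.11 ± 0.13, adjusted p 2.2e-07).

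Potassium and HCN channel genes gave 2 higher and 3 lower of 34 tested of 60 listed (median -0.05), and sodium and calcium channel genes 2 higher and 1 lower of 19 tested of 29 listed (median -0.02). The called shares were 14.7% and 15.8%, near the 10.1% over all tested genes. Kcnmb4, the neuronal beta subunit of the BK calcium-activated potassium channel, had 1326, 990.1 and 1319 in hippocampal pyramidal neurons, against 3952, 3102 and 3864 in cingulate layer 5 neurons (-1.58 ± 0.21, 2.99-fold lower, adjusted p 2.2e-06). Kcnmb2, another beta subunit of the same channel, was lower by a difference of -0.80 ± 0.24 (adjusted p 0.024), a call lost without YFPH_Hip array 2, YFPH_Cg array 2 or YFPH_Cg array 3. The sodium and calcium channel list had 1 higher member without YFPH_Hip array 2 or any single YFPH_Cg array, and 2 lower members without YFPH_Hip array 3, YFPH_Cg array 2 or YFPH_Cg array 3. No potassium channel gene was higher without YFPH_Hip array 2, YFPH_Cg array 1 or YFPH_Cg array 2, each left out alone. Kcnip2 and Cacna1c were higher on all arrays, and each lost its call without any 1 of those arrays. Kcnh2, the ERG potassium channel, had 150.5, 144 and 163 in hippocampal pyramidal neurons, against 276, 295 and 306 in cingulate layer 5 neurons (-0.87 ± 0.21, adjusted p 0.0047). Scn3b, an auxiliary subunit of sodium channels, had 2919.7, 4076 and 2771 in hippocampal pyramidal neurons, against 1902, 2166 and 1676 in cingulate layer 5 neurons (0.75 ± 0.17, adjusted p 0.0032). Cacng2, the AMPA receptor partner stargazin, was lower, with 249, 291 and 226 in hippocampal pyramidal neurons, against 553, 398 and 394 in cingulate layer 5 neurons (-0.76 ± 0.14, adjusted p 3.0e-04).

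Calcium buffers and sensors held 10 called members of 19 tested of 23 listed, 3 higher and 7 lower, with a median of -0.07. Hpca, hippocalcin, had 6285, 7753 and 5688 in hippocampal pyramidal neurons, against 2132, 2839 and 2485 in cingulate layer 5 neurons (1.40 ± 0.24, adjusted p 7.2e-05). Ppp3ca, a catalytic subunit of calcineurin, had 8576, 10139.5 and 8279.9 in hippocampal pyramidal neurons, against 4426, 4645 and 4792 in cingulate layer 5 neurons (0.95 ± 0.16, adjusted p 5.3e-05). With Calb1 these 2 were the higher members, and none of the 3 had overlapping groups.

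The lower members of that list were Ncald, Pcp4, S100b (also an astrocyte gene), Cabp1, Hpcal1, Necab3 and Vsnl1. Ncald, neurocalcin delta of the hippocalcin family, had 542, 862 and 2401 in hippocampal pyramidal neurons, against 4328, 5095 and 3344 in cingulate layer 5 neurons, with YFPH_Hip array 3 well above the other two hippocampal arrays (-1.99 ± 0.31, adjusted p 1.6e-05). A second, also bright probe set of Ncald differed by only -0.13. Hpcal1 and Vsnl1, both of the same family as Hpca, were lower by differences of -0.75 ± 0.20 and -0.48 ± 0.12 (adjusted p 0.011 and 0.0072), calls that Hpcal1 lost without YFPH_Hip array 1, YFPH_Hip array 2 or YFPH_Cg array 1 and Vsnl1 without YFPH_Hip array 1. Cabp1, a calmodulin-like calcium sensor, had 165, 190.3 and 157 in hippocampal pyramidal neurons, against 485, 293 and 522 in cingulate layer 5 neurons (-1.23 ± 0.30, adjusted p 0.0048). When the 3 arrays with a note were left out, the list had 3 higher and 3 lower members.

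Kinase and second messenger genes gave 3 higher and 4 lower of 49 tested of 67 listed (median -0.07). That is 14.3% called, near the 10.1% over all tested genes. Camk2g, a subunit of calcium/calmodulin-dependent kinase II, had 1544, 1505 and 1357 in hippocampal pyramidal neurons, against 3071, 3134 and 2521 in cingulate layer 5 neurons (-0.97 ± 0.15, adjusted p 1e-05). Prkacb, a catalytic subunit of protein kinase A, had 5904, 4549 and 5366 in hippocampal pyramidal neurons, against 7801, 8163 and 8154 in cingulate layer 5 neurons (-0.61 ± 0.11, adjusted p 1.9e-04). The list had 1 higher and 4 lower members without YFPH_Hip array 2, 3 and 2 without YFPH_Cg array 1, and 1 and 3 without YFPH_Cg array 3. Adcy9, an adenylyl cyclase, was higher by 0.69 ± 0.14 (adjusted p 0.0011). Ryr3 and Ptk2b were also higher and Rgs4 lower, calls that each lost without YFPH_Cg array 3. Of early response genes, which neurons switch on with activity, 20 of 22 listed were tested, with Ptgs2 and Inhba higher and Dusp1 lower (median 0.01), Dusp1 losing its call without YFPH_Hip array 1, YFPH_Hip array 2, YFPH_Cg array 1 or YFPH_Cg array 2. The called share of early response genes was 15%, near the 10.1% over all tested genes. Of 11 genes of corticosteroid signalling 9 were tested and 0 were called (median -0.14), the largest difference being that of Klf9 at -0.45 ± 0.16 (adjusted p 0.068), with 1 lower without YFPH_Hip array 2 and 1 higher without YFPH_Hip array 3.

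Of 45 genes of the extracellular matrix, 35 were tested, and Dcn was the only one higher while Reln, Spock1 and Adamts1 were lower (median -0.01), Adamts1 losing its call without YFPH_Cg array 3 (adjusted p 0.053). The called share was 11.4%, near the 10.1% over all tested genes. Reln, which guides neuronal layering, had 227, 244 and 290.3 in hippocampal pyramidal neurons, against 1508, 763 and 835 in cingulate layer 5 neurons (-1.90 ± 0.31, adjusted p 3.2e-05). Spock1, the proteoglycan testican 1, had 300.3, 277 and 605 in hippocampal pyramidal neurons, against 1131, 1314 and 1078 in cingulate layer 5 neurons (-1.62 ± 0.18, adjusted p 7.2e-08). Without YFPH_Hip array 2 the list had 2 higher and 4 lower members, and Col5a2 and Matn2 were not among its members.

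Axon guidance genes gave 4 higher and 3 lower of 35 tested of 56 listed (median 0.06), with 2 higher and 4 lower without YFPH_Hip array 2 and 2 and 3 without YFPH_Cg array 3. Epha4, an ephrin receptor, had 2159.7, 2463 and 1680.1 in hippocampal pyramidal neurons, against 899, 1476 and 707 in cingulate layer 5 neurons (1.07 ± 0.25, adjusted p 0.0031). A second, dimmer probe set of Epha4 differed by 0.29. Without the 3 arrays with a note Epha4 lost its call, and the list had 1 higher and 2 lower members. The related receptors Epha7 and Ephb6 ran the other way, with -1.15 ± 0.26 and -1.37 ± 0.16 (adjusted p 0.0023 and 1.9e-07). Nrp1, a receptor for class 3 semaphorins, had 1993, 2456 and 2094 in hippocampal pyramidal neurons, against 1424, 941 and 992 in cingulate layer 5 neurons (0.97 ± 0.24, adjusted p 0.0057).

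Of cadherins and protocadherins, 2 were higher and 5 lower of 21 tested of 36 listed (median -0.15). Besides Pcdh20 the higher one was Cdh2, the classical cadherin of synapses, at 0.71 ± 0.23 (adjusted p 0.039), a call that held only without YFPH_Cg array 2 when arrays were left out in turn. The list had 1 higher and 3 lower members without YFPH_Hip array 1 or YFPH_Cg array 3, 1 and 4 without YFPH_Hip array 3, 1 and 2 without YFPH_Hip array 2, 1 and 1 without YFPH_Cg array 1, and 2 and 3 without YFPH_Cg array 2. Cdh13, a cadherin anchored by a lipid, had 348, 338 and 614 in hippocampal pyramidal neurons, against 1828, 1184 and 1465 in cingulate layer 5 neurons (-1.78 ± 0.32, adjusted p 1.9e-04). Cdh10 and Clstn3 were also lower, calls that both lost without YFPH_Cg array 1. Of 5 tested neurofilament genes of 6 listed 0 were called, Nefh being lower on each hippocampal array than on each cingulate one, at 580.0, 807 and 899 in hippocampal pyramidal neurons and 1600.0, 1046 and 1071 in cingulate layer 5 neurons, without passing the test (-0.68 ± 0.26, adjusted p 0.092).

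Of 22 neuropeptide genes 16 were tested, with Grp higher and Adcyap1 lower (median 0.09), and 2 higher without YFPH_Hip array 1 or YFPH_Cg array 1. The called share was 12.5%, near the 10.1% over all tested genes. Grp, gastrin-releasing peptide, had 5345, 2681 and 2339 in hippocampal pyramidal neurons, against 990.1, 1142 and 714 in cingulate layer 5 neurons (1.77 ± 0.27, 3.42-fold, adjusted p 1.8e-05). Growth factors and their binding proteins gave 3 higher and 6 lower of 30 tested of 47 listed (median -0.04). Cxcl12, a chemokine, had 1681, 462 and 555 in hippocampal pyramidal neurons, against 2935, 2527 and 2073 in cingulate layer 5 neurons, with YFPH_Hip array 1 nearer the cingulate arrays (-1.69 ± 0.32, adjusted p 3.7e-04). A second, dimmer probe set of Cxcl12 differed by 0.04. Igfbp6 and Fgf12, an intracellular fibroblast growth factor homologue that binds sodium channels, were lower with Igfbp4, by -1.04 ± 0.27 and -0.99 ± 0.16 (adjusted p 0.0095 and 3.2e-05). Igfbp6 lost its call without YFPH_Hip array 3, and the list had 1 higher and 4 lower members without YFPH_Cg array 1.

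Markers of other cells were measured on the same arrays. None of 11 tested genes of GABAergic neurons, 3 of oligodendrocytes and 8 of endothelial and mural cells was called, with medians of 0.03, 0.08 and -0.02. The largest differences in these lists were those of Sst (0.36), Cnp (0.17) and Rgs5 (0.30). At the 10.1% called over all tested genes, lists this small can hold 0. Of 8 tested astrocyte genes 3 were lower in hippocampal pyramidal neurons (Aldoc, S100b and Glul), and the summed intensity of the list was 2208 to 2718 on YFPH_Hip arrays and 3834 to 4195 on YFPH_Cg arrays, without overlap. Aldoc, an aldolase listed here as an astrocyte gene, had 181, 182 and 203 in hippocampal pyramidal neurons, against 759, 802 and 440.1 in cingulate layer 5 neurons (-1.70 ± 0.33, adjusted p 5.6e-04), while Gfap and Apoe had differences of -0.061 ± 0.089 and 0.073 ± 0.37 (adjusted p 0.76 and 0.94). Among the other groups used here, mean log2 Aldoc ran from 7.84 in amygdala to 11.74 in hippocampal somatostatin neurons. Apoe was 7.35 and 7.72 in those groups, against 12.98 and 13.09 in the cingulate homogenate groups. On the GIN_Hip arrays Apoe intensities were 83.2, 723 and 113, so that their mean hides a wide spread. The part of astrocyte RNA in the results that are lower in hippocampal pyramidal neurons was not tested.

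Of 7 tested microglial genes 2 were higher in hippocampal pyramidal neurons, and the summed intensity was 3861 to 4659.6 on YFPH_Hip arrays and 3687 to 4172 on YFPH_Cg arrays. C1qa, a chain of complement C1q, had 199, 221 and 663 in hippocampal pyramidal neurons, against 170.0, 189.7 and 162 in cingulate layer 5 neurons, and C1qb differed by 0.44 ± 0.13 (adjusted p 0.017). Without YFPH_Hip array 3 neither passed (adjusted p 0.41 and 0.17), nor did they without YFPH_Cg array 3, nor C1qa without YFPH_Cg array 1. Of 6 tested genes of meninges and choroid plexus Dcn alone was called, and 2 without YFPH_Cg array 3. The others had differences between -0.10 and 0.23, and Col1a2, a collagen chain of fibroblasts, had 442, 531 and 564 in hippocampal pyramidal neurons and 436, 439 and 467 in cingulate layer 5 neurons (adjusted p 0.24).

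Genes called in these lists were also set against amygdala neurons, a comparison that shares the YFPH_Hip arrays. Bcl11a was higher by 2.47, Epha4 by 1.41, Nrp1 by 2.06, Grik1 by 1.92, Lmo1 by 1.53, Zbtb20 by 1.09, Ppp3ca by 0.86, Pou3f1 by 3.04 and Inhba by 0.56 (largest adjusted p 0.0036). Lower were Lypd1 (-2.01), Ncald (-2.71), Pcp4 (-1.73), S100b (-1.71), Hpcal1 (-2.43), Satb1 (-1.46), Spock1 (-2.37), Tle4 (-1.01), Tbr1 (-0.66), Epha7 (-1.08), Fgf12 (-0.89) and Prkacb (-0.73), of which Epha7 had the largest adjusted p (0.0047) and did not pass without the noted arrays (0.16). Tox (1.30), Cxcl12 (1.30) and Sulf2 (0.98) were higher than in amygdala neurons although they were lower than in cingulate layer 5 neurons (adjusted p 7.5e-06, 0.0079 and 2.3e-04), Cxcl12 not passing without the noted arrays (0.26).

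Many list members did not pass against amygdala neurons. These included Wfs1 (-0.019), Man1a (0.40), Gria1 (0.59), Grp (-0.054), Hpca (0.14), Scn3b (0.35) and Cdh2 (0.10), all higher than in cingulate layer 5 neurons. They also included Camk2g (-0.0035), Gabrd (-0.17), Id2 (-0.20), Kcnmb4 (0.30), Cacng2 (-0.13), Reln (0.25), Cdh13 (0.87), Ephb6 (-0.21), Igfbp6 (-0.56), Cabp1 (-0.27), Vsnl1 (-0.24), Aldoc (-0.17) and Glul (0.017), all lower than in cingulate layer 5 neurons. The smallest adjusted p among these was 0.073, that of Gria1, and a p that misses the threshold does not show that hippocampal and amygdala neurons were alike.

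Whether the region difference of pyramidal neurons was shared with somatostatin interneurons of the same regions was tested as a difference of differences, (YFPH_Hip minus YFPH_Cg) minus (GIN_Hip minus GIN_Cg). It passed for 1946 of 9295 genes (20.9%), 914 higher (9.83%) and 1032 lower (11.1%). Between hippocampal and cingulate somatostatin neurons alone, on arrays that the pyramidal comparison does not use, 1706 genes were called (18.4%). The 2 comparisons had 284 called genes in common, which are 30.4% of the pyramidal and 16.6% of the somatostatin calls, and of these 71 ran in the same and 213 in opposite directions. The Gapdh 3' to 5' log2 ratio ran in opposite directions too, at 2.53 ± 0.05 on YFPH_Hip and 2.12 ± 0.05 on YFPH_Cg arrays, but 2.43 ± 0.38 on GIN_Hip and 3.21 ± 0.37 on GIN_Cg arrays (SD, n = 3 each). The GIN_Hip arrays came from chip lots 9 and 11 and the GIN_Cg arrays from lots 3 and 4, so that chip lot and region cannot be told apart within the somatostatin arrays. The part of RNA quality and chip lot in the opposite directions was not tested. The difference of differences passed for 1229 genes with the Gapdh ratio as a covariate and for 96 with chip lot as a block, under which 97.3% of the 1946 kept their direction.

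Ramp3 had the largest negative value, -7.41 (adjusted p 1.9e-13). In somatostatin neurons its intensities were 3128, 2836 and 3785 in the hippocampus, against 145, 102 and 182 in the cingulate cortex, the reverse of the pyramidal pattern (4.38, adjusted p 1e-11). Igfbp4 was reversed likewise, with 5017, 5685 and 6041 in hippocampal and 659, 769.7 and 687 in cingulate somatostatin neurons (2.96 there, -5.23 for the difference, adjusted p 3.1e-14). Aldoc had 2846, 3673 and 3814 in hippocampal and 325, 271 and 251 in cingulate somatostatin neurons (difference of differences -5.23, adjusted p 4.9e-10).

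Dcn and Calb1, the genes with the largest positive differences in pyramidal neurons, were lower in hippocampal somatostatin neurons. Dcn had 176, 261 and 213 in hippocampal somatostatin neurons, against 1282, 469 and 645 in cingulate somatostatin neurons (-1.70, adjusted p 0.001), and its difference of differences was 6.85 (adjusted p 6.9e-12). Calb1 had 1801, 1675 and 2046 in hippocampal somatostatin neurons, against 6747, 7674 and 7949.8 in cingulate somatostatin neurons (-2.01, adjusted p 1.8e-05), and its difference of differences was 5.93 (adjusted p 6.9e-12). Sash1, a scaffold protein with SH3 and SAM domains, followed the same pattern with -2.55 in somatostatin and 1.68 ± 0.16 in pyramidal neurons (difference 4.24, adjusted p 2e-15), and Nnat gave a difference of 4.22 (adjusted p 1.7e-05).

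For other genes the region difference passed the test in somatostatin neurons and did not in pyramidal neurons. Bcl11b had 114, 93.8 and 87.2 in hippocampal somatostatin neurons, against 1549.5, 1764 and 2425 in cingulate somatostatin neurons (4.11 for the difference of differences, adjusted p 1.6e-08). Calb2, calretinin, differed by -3.38 in somatostatin and 0.28 ± 0.37 in pyramidal neurons (difference 3.66, adjusted p 3.1e-06). Ptpre, a receptor-type tyrosine phosphatase, and Rgs10, a regulator of G protein signalling, were higher in hippocampal somatostatin neurons, by 3.54 and 3.28, against -0.27 ± 0.32 and 0.05 ± 0.23 in pyramidal neurons (difference -3.82 and -3.23, adjusted p 1.8e-07 and 3.4e-09). Lamp5 was different, since its somatostatin difference was -0.15 (adjusted p 0.77) and the pyramidal one carried the value of -4.00 (adjusted p 1.4e-08).

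**Figure D5:**
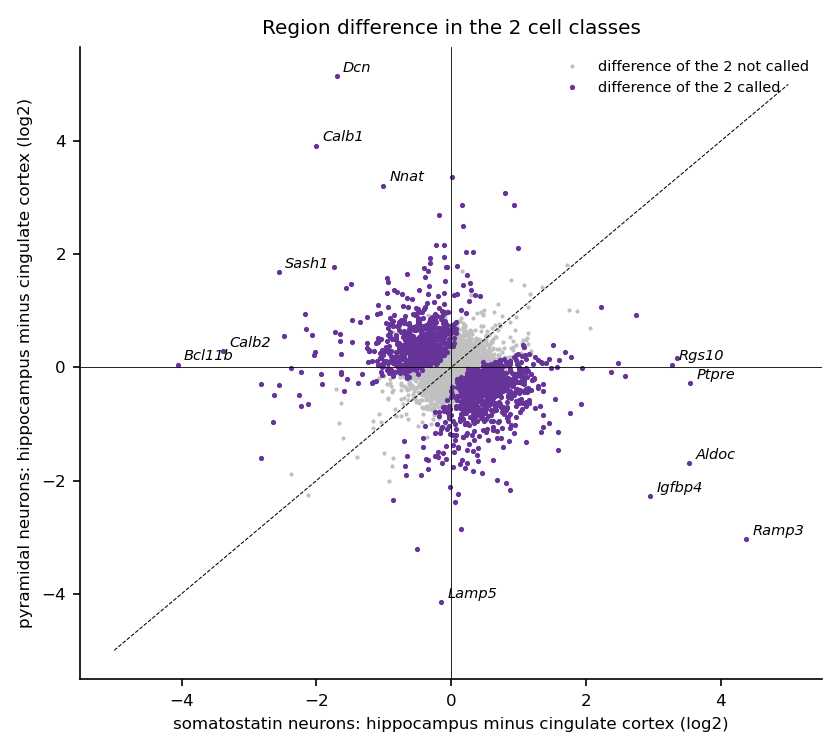
Hippocampus minus cingulate cortex (log2) in pyramidal neurons (vertical) against that in somatostatin neurons (horizontal) for 9295 genes, with purple points where the difference of the 2 was called (1946 genes) and a dashed line of equality. Dcn, Calb1, Nnat and Sash1 lie upper left, Ramp3, Igfbp4 and Aldoc lower right.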

How the data were processed

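RNA of small pools of hand-sorted fluorescent neurons was amplified and hybridised to Affymetrix MOE430A arrays, per the labels. The deposited series table holds an intensity for each of 22690 probe sets on 42 arrays, from 1 to 22818.24, with array medians of 285.83 to 330.39, and the labels and headers do not say how the authors summarised and scaled these intensity values. It holds no detection calls, so that dim values are given as they stand, and the number of arrays limits the precision.

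Of the probe sets, 64 are controls, 20380 have 1 symbol in the platform annotation, 691 several and 1555 none listed, and 20351 of the symbols' probe sets matched RefSeq. The brightest probe set with 1 symbol was kept for each of 12393 genes, 16 was added before log2, and genes under the 25th percentile of mean level (log2 of 7.77, intensity 203) were left out, which left 9295. For Tox, Tle4, Scn3b, Kcnmb2, Cdh13, Aldoc and C1qb, among others, dimmer probe sets gave smaller differences than the one used. Group means over all 42 arrays in 14 groups were fitted in limma 3.58.1 (R 4.3.3) with a variance trend (28 residual and 6.07 prior degrees of freedom), with adjusted p below 0.05 as a call. P-values rest on the spread between arrays within groups, pooled over all 14 groups, with replicates from different animals by the series design. Hippocampal and amygdala arrays may come from the same mice, which the unmatched comparison of those groups leaves out of account.

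The members and the gene lists were chosen with earlier results of these data known. The text names the 12 genes in each direction with the largest called difference and no overlap, the 6 in each direction for the difference of differences, up to 4 called members per list (or the largest if none was called) and a short set of cell markers. Adcy9, Cabp1, Cdh2, Col1a2, Hpca, Hpcal1, Lmo1, Nr4a2, Pou3f1, Ppp3ca, Prkacb, Tcf4, Vsnl1, Zbtb20 and Zeb2 fall outside this rule and were chosen after their values were seen. Alternatives were another offset, filter, normalization and probe set rule, the compared arrays alone, blocks for replicate number, scan day, scan year and chip lot, a Gapdh covariate, arrays left out, and hippocampal and amygdala arrays matched by age (chosen after seeing the data).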

Additional observations from a re-analysis of the deposited data

Results flagged for a closer look

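The region difference was set apart between pyramidal and somatostatin neurons by a test of the difference itself, which passed for 1946 genes in limma after Benjamini-Hochberg adjustment. The 12 genes with the largest such differences are given here with the pyramidal and then the somatostatin hippocampus minus cingulate difference (log2).

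In the positive direction, Dcn had a difference of differences of 6.85 (5.15 in pyramidal and -1.70 in somatostatin neurons). Calb1 had 5.93 (3.92 and -2.01), Sash1 had 4.24 (1.68 and -2.55) and Nnat had 4.22 (3.21 and -1.01). Bcl11b had 4.11 (0.05 and -4.06) and Calb2 had 3.66 (0.28 and -3.38). For Bcl11b and Calb2 the difference was thus mostly that of the somatostatin neurons.

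In the negative direction, Ramp3 had -7.41 (-3.04 and 4.38), Igfbp4 had -5.23 (-2.28 and 2.96) and Aldoc had -5.23 (-1.70 and 3.53). Lamp5 had -4.00 (-4.15 and -0.15), Ptpre had -3.82 (-0.27 and 3.54) and Rgs10 had -3.23 (0.05 and 3.28). Ramp3, Igfbp4 and Aldoc differed in opposite directions in the 2 classes, and the cause was not tested.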

How the results depend on the processing

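The chip lot and first scan year alternatives were chosen after seeing the data. The 935 genes called between hippocampal pyramidal and cingulate layer 5 neurons were 906 with quantile normalization, 955 with median centring, 935 and 954 with offsets of 1 and 64, 1002 with no filter, 794 with the 50th percentile filter, 1386 over every probe set, 930 with no variance trend, 956 with scan year as a block, 801 with scan day as a random block, 845 with the Gapdh covariate and 760 without the arrays with a note. They were 566 with the compared arrays only, 289 with chip lot as a block, 123 within chip lot 1 and 569 within the first scan year. Without 1 array in turn they were 582 to 922. Scan day as a fixed block was not run, because no day holds both groups. The difference of differences, called for 1946 genes, was called for 2928 over every probe set, 1229 with the Gapdh covariate and 96 with chip lot as a block, for which Nnat lost its call, and for 1495 to 1997 without 1 array.

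Same-numbered arrays of the 2 groups correlated in their deviations at 0.051, 0.064 and 0.268, and the other pairs at -0.21 to 0.20. Deviations from a mean of 3 arrays constrain each other, so these values do not decide whether the numbers pair the arrays. With replicate number as a block, 967 genes were called for the main comparison and 1945 for the difference of differences.

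With chip lot as a block, 97.3% of the 1946 genes called for the difference of differences kept their direction. Between hippocampal pyramidal and cingulate layer 5 neurons, sign changes among named genes were found for genes that did not pass the test. Crym was 0.043 with quantile normalization, 0.037 with the Gapdh covariate, 0.056 with the random scan day, 0.10 by either chip lot setting and 0.028 in the first scan year. Gad2 was 0.011 with scan year as a block, 0.12 without the arrays with a note, 0.057 by chip lot and 0.082 in the first scan year. Rgs10 was -0.084 with the Gapdh covariate and -0.039 by chip lot, Slc32a1 -0.041 with the Gapdh covariate, Nrgn 0.010 without the arrays with a note and 0.11 by chip lot, and Mbp -0.0021 in the first scan year. Without 1 array in turn, 8 genes changed sign, with ranges of -0.090 to 0.17 for Crym, -0.10 to 0.082 for Gad2, -0.0077 to 0.19 for Slc32a1, -0.31 to 0.24 for Bcl11b, -0.13 to 0.0019 for Gfap, -0.0068 to 0.17 for Apoe, -0.069 to 0.54 for Rgs5 and -0.13 to 0.23 for Mbp.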
